A study of Mus musculus with 4 samples.

Results

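The 9 genes described here mark or drive the making of plasma cells, the antibody-secreting descendants of B cells: Irf4, Pou2af1, Prdm1 and Xbp1 (transcriptional regulators), Mzb1, Derl3, Fkbp11 and Creld2 (proteins of the endoplasmic reticulum, ER) and Sdc1 (a surface marker). They were taken by symbol, and all 9 were found among the 26214 symbols counted. The RNA came from the stromal vascular fraction (SVF) of the inguinal white fat pad (iWAT) of mice given a medicinal herb extract (MHE, 2 libraries) or phosphate-buffered saline (PBS, 2 libraries). The labels call the libraries biological replicates and give neither strain, sex, age and diet of the mice nor the composition, dose and duration of the extract, and they do not say whether a library is 1 animal or a pool. The SVF is the cell pellet left when digested fat is spun free of floating adipocytes. All 12 adipocyte markers had counts in every library, and they summed to 25160 and 17993 CPM (counts per 1000000, with depth scaled by the TMM method) with MHE, against 28786 and 43585 CPM with PBS.

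In a B cell that becomes a plasma cell, IRF4 rises and switches on Prdm1, whose product Blimp-1 represses B cell genes such as Pax5. XBP1, made active by unconventional splicing of its mRNA when the ER is loaded, then widens the secretory machinery. In fat, plasma cells and B cells are found among the stromal cells and in the lymph node that lies inside the inguinal pad. Several of the 9 genes are also used by other cells.

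Libraries held 27161882 to 33391075 counts. All levels below are in CPM unless given as counts. A change was called at an adjusted p under 0.05 in the edgeR quasi-likelihood test (Benjamini-Hochberg over the 16196 genes tested). With 2 libraries a group, an exact permutation test of a single gene cannot give a two-sided p under 0.333. PBS replicate 1 stood apart from the other 3 libraries in epithelial genes. The PBS libraries differed more than 10-fold in 2.56% of tested genes, against 0.408% between the MHE libraries.

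Promoter sequences are shown for the gene that was called (Irf4), for the one with the largest fitted change (Pou2af1) and for the ER genes in whose promoter a stress element was found (Derl3 and Creld2). Each runs 5′ to 3′ on the gene's strand, from 250 bases before to 50 after the RefSeq start on GRCm38.p6, the assembly behind mm10. They lie at chr13:30748983-30749282, chr9:51213440-51213739, chr10:75893148-75893447 and chr15:88819396-88819695, all on the + strand. Capitals mark a motif match.
Irf4: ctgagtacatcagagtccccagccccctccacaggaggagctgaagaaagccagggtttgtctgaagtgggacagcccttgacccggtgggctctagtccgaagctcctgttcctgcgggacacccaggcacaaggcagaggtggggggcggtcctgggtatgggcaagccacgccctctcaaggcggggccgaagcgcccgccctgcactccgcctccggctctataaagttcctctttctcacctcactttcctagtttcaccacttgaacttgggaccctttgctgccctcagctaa
Pou2af1: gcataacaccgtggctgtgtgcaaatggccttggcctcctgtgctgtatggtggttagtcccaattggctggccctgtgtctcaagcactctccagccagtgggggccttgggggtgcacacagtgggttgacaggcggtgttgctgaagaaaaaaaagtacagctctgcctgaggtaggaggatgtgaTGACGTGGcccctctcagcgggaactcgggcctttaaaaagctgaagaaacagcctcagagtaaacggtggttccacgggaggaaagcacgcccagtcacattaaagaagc
Derl3: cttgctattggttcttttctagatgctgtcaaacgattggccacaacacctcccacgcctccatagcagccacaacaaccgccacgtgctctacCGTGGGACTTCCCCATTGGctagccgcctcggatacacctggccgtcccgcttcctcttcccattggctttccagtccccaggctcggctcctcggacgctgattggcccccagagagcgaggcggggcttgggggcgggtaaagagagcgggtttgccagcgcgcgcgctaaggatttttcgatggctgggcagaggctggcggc
Creld2: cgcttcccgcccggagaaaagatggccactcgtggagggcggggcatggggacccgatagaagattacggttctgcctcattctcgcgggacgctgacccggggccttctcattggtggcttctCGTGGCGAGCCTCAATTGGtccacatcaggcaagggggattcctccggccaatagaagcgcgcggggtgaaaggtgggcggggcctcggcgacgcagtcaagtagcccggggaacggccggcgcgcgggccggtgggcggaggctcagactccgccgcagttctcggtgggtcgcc

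The motifs searched, on both strands, were the ER stress response element (CCAAT, then 9 bases of any kind, then CCACG), which ATF6 binds with NF-Y, the unfolded protein response element TGACGTGG, and the octamer ATGCAAAT, which Oct factors bind with the Pou2af1 protein as co-activator. Promoters on chromosome 18, where Mzb1 lies, were left out of the search, so 8 of the 9 genes were searched. The ER stress response element was present in Derl3 and Creld2, at bases -156 to -138 and -126 to -108 from the start and on the opposite strand in both, so that the capitals read as its reverse complement. It occurred in 0.119% of the 32851 promoters of the same length that were searched, chromosome 18 again left out. Of the ER chaperone and degradation genes, 18 had a promoter in that set, and 7 held the element, Hspa5 and Calr among them. The unfolded protein response element was present in Pou2af1, at bases -61 to -54 on the gene's own strand, and in 0.676% of all promoters searched. The octamer was found in none of the 8 and in 1.74% of all promoters searched. No motif overlapped another in these promoters, and a match of letters says nothing about binding in these samples.

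Irf4 (chr13:30749226-30766976 on mm10, + strand) was higher in the MHE libraries and was the only one of the 9 genes to pass the test over all genes. This was 1 of 9, beside 4.93% of all genes tested (3.97% higher and 0.963% lower with MHE). Irf4 encodes a transcription factor that plasma cells need and that activated T cells, some dendritic cells and macrophages also use. It stood at 53.6 and 79.4 CPM with MHE, against 12.3 and 19.8 CPM with PBS. Both MHE libraries were above both PBS libraries by a wide margin, and within each group replicate 2 was the higher. The means were 66.5 ± 18.3 CPM with MHE and 16.04 ± 5.28 CPM with PBS (SD, n = 2 each), a log2 fold change of 2.05 ± 0.34 (SE; edgeR adjusted p = 0.0439). The fold change lay between 1.73 and 2.44 with any one library left out. The call was lost without MHE replicate 1 (adjusted p = 0.322) or MHE replicate 2 (0.296), settings in which 0 of all genes passed (2352 and 2596 at an unadjusted p under 0.05). In bulk RNA, a different number of cells of a type and a different amount of RNA per cell cannot be told apart.

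**Figure D1:**
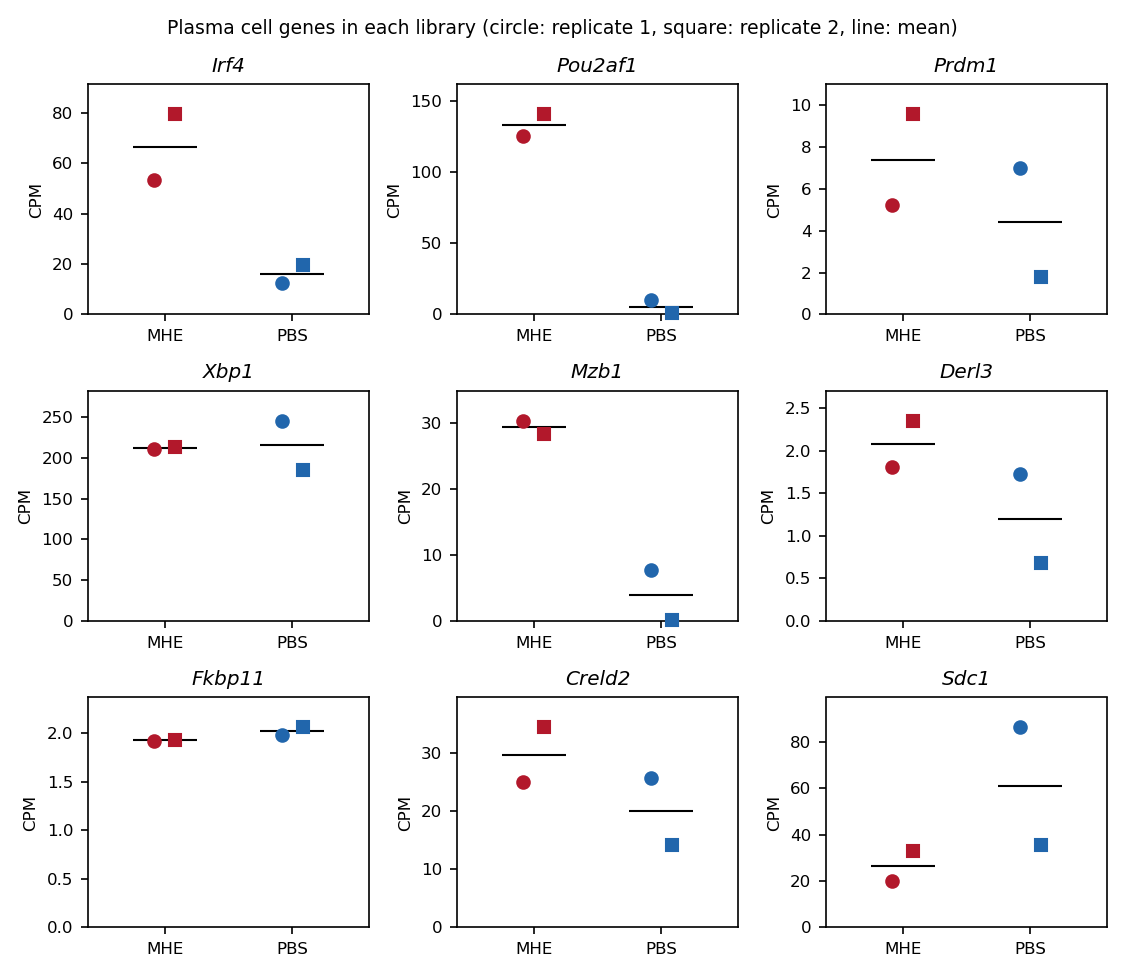
CPM of each of the 9 genes in each library, with linear axes that start at 0; circles are replicate 1, squares replicate 2 and lines the mean of 2. Irf4, Pou2af1 and Mzb1 were well apart between MHE and PBS, Xbp1 and Fkbp11 nearly level, and Sdc1 was highest in PBS replicate 1, at 86.1 CPM.

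Pou2af1 (chr9:51213708-51240080, + strand) had the largest fitted difference of the 9 and did not pass. It encodes the B cell co-activator OCA-B (Bob1), which joins the octamer-binding factors Oct-1 and Oct-2. It had 4181 and 4010 counts with MHE, against 273 and 27 with PBS, that is 126 and 141 CPM with MHE against 9.85 and 0.912 CPM with PBS. The groups were far apart, while the PBS libraries differed 10.8-fold from each other. The log2 fold change was 4.63 ± 1.09 (edgeR adjusted p = 0.077). It passed by DESeq2 (adjusted p = 9.57e-07) and by limma-voom (0.0347), by each of which 2 of the 9 genes, Irf4 and Pou2af1, were called, beside 19.3% and 7% of all genes. With PBS replicate 1 or 2 left out, the spread within a group came from the MHE pair alone. Pou2af1 then had a log2 fold change of 7.17 or 3.77. It did not pass with no low-count filter (adjusted p = 0.153), without MHE replicate 1 (0.358) or without MHE replicate 2 (0.320).

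The genes of the factors it partners were tested as paralogues or partners of the 9. Pou2f2, which encodes Oct-2, rose to 28.7 ± 3.32 CPM with MHE, against 1.89 ± 0.952 CPM with PBS (log2 fold change 3.92 ± 0.43, adjusted p = 0.0238). Pou2f1, which encodes the widely expressed Oct-1, had a log2 fold change of 1.40 ± 0.26 (adjusted p = 0.0521). Over the 4 libraries, the tested genes whose log2 CPM pattern lay nearest to that of Pou2af1 were Siglecg (Euclidean distance 0.188 in log2 units), an inhibitory lectin of B cells, and Slamf6 (0.393), a receptor of lymphocytes. The nearest to Irf4 were Tgtp1 (0.238), an interferon-induced GTPase, and Kmt2a (0.267), a histone methyltransferase. The nearest to Mzb1 were Dsg2 (0.659) and Tlr12 (0.885), those to Sdc1 Gas1 (0.118) and Gla (0.128), those to Prdm1 Pknox2 (0.118) and Dkk3 (0.332), and those to Creld2 Alpk1 (0.113) and Spdl1 (0.118).

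The other regulators, Prdm1 (chr10:44437177-44528501, - strand) and Xbp1 (chr11:5520659-5525893, + strand), did not pass the test. Prdm1 encodes Blimp-1, which also acts in T cells and macrophages. It had 5.24 and 9.55 CPM with MHE, against 7.003 and 1.79 CPM with PBS. The groups overlapped, because PBS replicate 1 was above MHE replicate 1. Its log2 fold change was 0.75 ± 0.71 (adjusted p = 0.523). Leaving out PBS replicate 2 gave 0.08, and leaving out PBS replicate 1 gave 2.02. Xbp1 had 211 and 214 CPM with MHE, against 245 and 186 CPM with PBS, with both MHE libraries between the PBS ones. Its log2 fold change was -0.02 ± 0.26 (adjusted p = 0.965). Gene counts do not separate spliced from unspliced Xbp1 mRNA, so these values are of its total mRNA.

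Mzb1 was higher in both MHE libraries, and its PBS libraries differed 45.7-fold. The gene encodes an ER protein (pERp1) of B cells and plasma cells that helps antibody assembly. It had 1007 and 808 counts with MHE, against 214 and 5 with PBS, that is 30.3 and 28.4 CPM with MHE against 7.72 and 0.169 CPM with PBS. The MHE libraries were close together and above both PBS libraries. The log2 fold change was 2.90 ± 1.35 (adjusted p = 0.231), 7.39 without PBS replicate 1 (adjusted p = 2.46e-05) and 1.93 without PBS replicate 2 (0.00359). The gene model of Mzb1 shares exon bases with Spata24 on the same strand. Spata24 had 122 and 42 counts with MHE, against 183 and 144 with PBS, the opposite order of groups. Reads of the shared bases cannot be assigned to one of the pair.

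The remaining ER members, Derl3 (chr10:75893413-75895941, + strand), Creld2 (chr15:88819646-88826683, + strand) and Fkbp11 (chr15:98724366-98728198, - strand), did not pass. Derl3, a derlin of ER-associated degradation (ERAD), had 60 and 67 counts with MHE, against 48 and 20 with PBS (log2 fold change 0.79 ± 0.63, adjusted p = 0.45). In CPM these were 1.81 and 2.35 with MHE, against 1.73 and 0.676 with PBS, so the lower MHE library and PBS replicate 1 were nearly equal. Creld2, an ER protein induced by ER stress, had 24.98 and 34.4 CPM with MHE, against 25.7 and 14.3 CPM with PBS, and the groups overlapped (0.57 ± 0.35, adjusted p = 0.339). Fkbp11, a prolyl isomerase of the ER, had 1.93 CPM in both MHE libraries, against 1.99 and 2.06 CPM with PBS (-0.07 ± 0.44, adjusted p = 0.929). Derl3 and Fkbp11 rest on 20 to 67 counts a library, and their SE of 0.63 and 0.44 sets the size of difference that could be seen.

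Sdc1 (chr12:8771323-8793715, + strand) was the one gene of the 9 with a lower fitted level in MHE beyond its SE. It encodes syndecan-1 (CD138), the surface proteoglycan used to sort plasma cells and also borne by epithelia and some stromal cells. It had 19.8 and 32.8 CPM with MHE, against 86.1 and 35.5 CPM with PBS. Both MHE libraries were below both PBS libraries, though MHE replicate 2 and PBS replicate 2 were close. The log2 fold change was -1.21 ± 0.50 (adjusted p = 0.189). Leaving out PBS replicate 1 gave -0.45, and leaving out PBS replicate 2 gave -1.70. Its paralogues Sdc2, Sdc3 and Sdc4 had log2 fold changes of -0.90, 0.50 and 0.08 and did not pass.

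Epithelial markers, like Sdc1, were highest in PBS replicate 1, but their order over the remaining libraries differed from that of Sdc1. The 13 markers summed to 14.4 and 18.7 CPM with MHE, against 285 and 6.56 CPM with PBS. Their sum was thus lowest in PBS replicate 2, where Sdc1 was above both MHE libraries. The summed macrophage markers were also highest in PBS replicate 1 (2413 and 2988 CPM with MHE, 4087 and 1839 CPM with PBS). Krt8, a keratin of simple epithelia, had 4 and 10 counts with MHE, against 1286 and 2 with PBS. Of the 13 markers, 3 and 2 were at 0 counts in MHE replicates 1 and 2, against 0 and 4 in PBS replicates 1 and 2, and Krt15 and Cldn7 were at 0 in both MHE libraries. The median log2 fold change was -3.50 over the 7 epithelial markers tested with all libraries. It was 1.7 over 7 tested without PBS replicate 1, and -5.85 over 12 tested without PBS replicate 2. In the last fit the low-count filter also let in markers with counts almost only in PBS replicate 1. The part of epithelial, macrophage or other transcripts in the Sdc1 level was not tested.

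**Figure D2:**
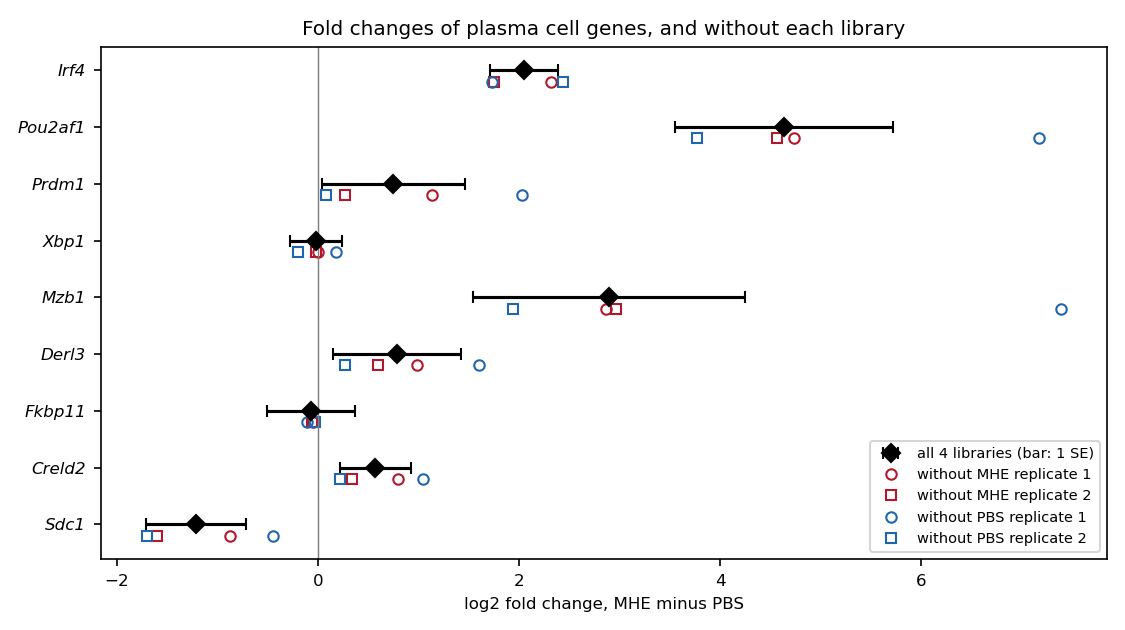
Log2 fold change (MHE minus PBS) of each gene with all 4 libraries (diamonds, bars 1 SE) and with each library left out (open symbols). Irf4 stayed between 1.73 and 2.44, whereas Mzb1 ranged from 1.93 to 7.39 and Pou2af1 from 3.77 to 7.17, depending on which PBS library was left out.

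Over the 9 genes, 6 fitted fold changes were positive and the median was 0.75, beside 7909 of 16196 positive and a median of -0.02 over all genes tested. The MHE libraries were above both PBS libraries in 4 of the 9 (33.1% of all genes) and below both in 2 (28.9%). The count of separated genes was thus near the share among all genes. Without PBS replicate 1, Irf4, Pou2af1, Mzb1 and Prdm1 passed, all higher (10.5% of all genes). Without PBS replicate 2, Irf4, Pou2af1 and Mzb1 passed as higher (7.45%) and Sdc1 as lower (7.18%).

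Levels per kilobase of exon put Xbp1 first in both groups. Xbp1 had 88.9 ± 0.918 CPM per kilobase with MHE and 90.2 ± 17.7 with PBS (SD, n = 2 each). In the MHE libraries it was followed by Pou2af1 (52.3 ± 4.14), Mzb1 (32.5 ± 1.52), Creld2 (21.7 ± 4.88), Irf4 (13.95 ± 3.83), Sdc1 (8.33 ± 2.89), Fkbp11, Derl3 and Prdm1 (2.63, 1.57 and 1.38). In the PBS libraries it was followed by Sdc1 (19.3 ± 11.3) and Creld2 (14.6 ± 5.92), whose ranges overlapped, and then by Mzb1, Irf4, Fkbp11 and Pou2af1 between 4.37 and 2.11, with Derl3 and Prdm1 last (0.912 and 0.819). Among those 4, the PBS range of Mzb1 covered the others, and that of Pou2af1 (3.87 and 0.358) overlapped them. By the means, Pou2af1 was second of 9 per kilobase with MHE and seventh with PBS, a rank that its PBS spread leaves uncertain.

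Jchain, which encodes the joining chain of secreted IgM and IgA, did not pass. It had 2426 and 5118 counts with MHE, against 3004 and 57 with PBS. PBS replicate 1 was above MHE replicate 1, and the PBS libraries differed 56.3-fold (log2 fold change 1.20 ± 1.55, adjusted p = 0.639). Ranked by the ratio of PBS replicate 1 to PBS replicate 2, Jchain, Mzb1 and Pou2af1 lay at the 99.5, 99.3 and 97.9 percentile of tested genes, Prdm1 at the 94.4, Derl3 at the 90.6 and Sdc1 at the 90, while Irf4 lay at the 9.79. The 12 symbols of immunoglobulin constant genes that were looked for were not among those counted and are not analysed here.

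Of 15 other plasma cell genes, 3 rose: Cd27, a receptor of memory B cells, plasma cells and T cells (33.9 ± 5.65 CPM with MHE, 1.34 ± 0.754 CPM with PBS), Tnfrsf13b, the TACI receptor of B cells and plasma cells (80.7 ± 17.4 CPM with MHE, 9.005 ± 5.18 CPM with PBS), and the ectoenzyme gene Cd38 (63.5 ± 1.09 CPM with MHE, 25.8 ± 5.14 CPM with PBS). Their log2 fold changes were 4.66 ± 0.47, 3.16 ± 0.48 and 1.30 ± 0.22 (adjusted p = 0.0218, 0.0395 and 0.0454). The kinase gene Pim2 had 2.57 ± 0.58 (adjusted p = 0.0732). The median of the 15 was 1.16. DESeq2 called 5 of the 15, beside 19.3% of all genes. Without MHE replicate 1 or 2 the median was 1.20 or 0.43. Without PBS replicate 1 or 2 it was 1.09 or 0.46. Of the 15, 12 were positive, while Ell2, Glcci1 and Zbtb20 had -0.64, -0.61 and -0.60 and did not pass.

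Of 8 transcription factors of B cell identity, the state that plasma cells leave, 3 rose (median 2.67): Bach2, a repressor of Prdm1 (79.1 ± 8.03 CPM with MHE, 6.96 ± 0.194 CPM with PBS, log2 fold change 3.51 ± 0.21, adjusted p = 0.0192), Ciita, the MHC class II transactivator (2.84 ± 0.35, 0.0258), and Irf8, the relative of Irf4 in B cells and myeloid cells (2.51 ± 0.40, 0.0426). Pax5, the B lineage factor that Blimp-1 represses, had 190 and 196 CPM with MHE, against 5.70 and 0.135 CPM with PBS, and did not pass (adjusted p = 0.0796). DESeq2 called 6 of the 8, all higher, beside 19.3% of all genes called in either direction. The median of the 8 was 2.50 or 2.85 without MHE replicate 1 or 2. It was 3.17 or 2.46 without PBS replicate 1 or 2.

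**Figure D3:**
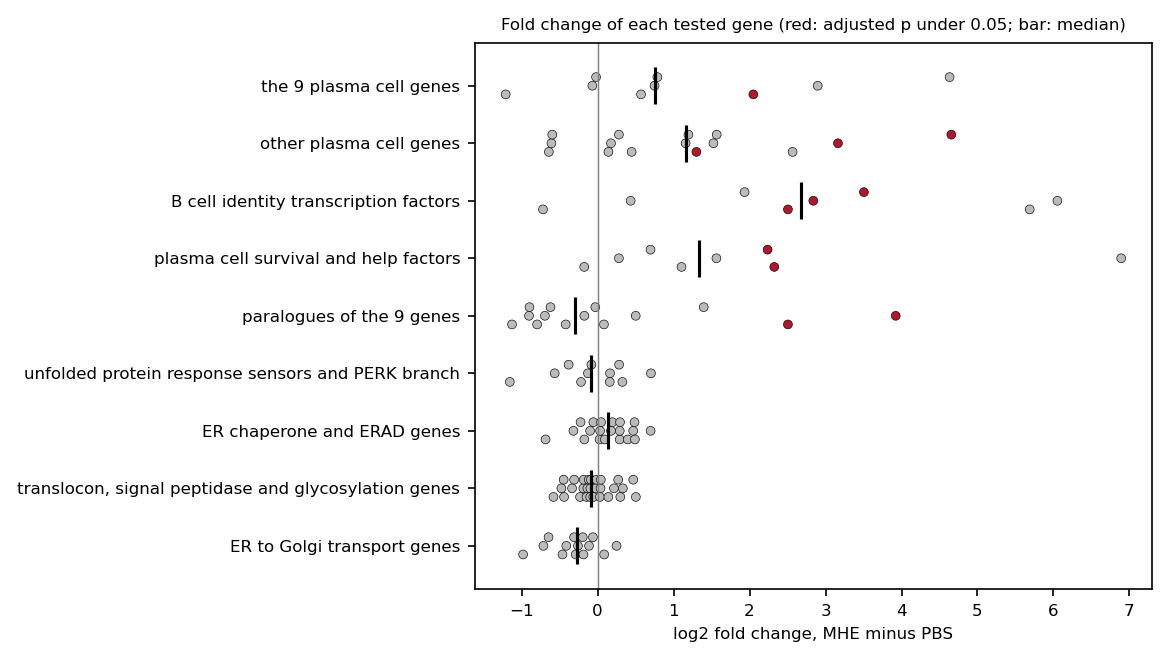
Log2 fold change (MHE minus PBS) of each tested gene in the 9 plasma cell genes and in 8 other lists; red points had an adjusted p under 0.05 and bars are medians. Red points lay in the first 5 rows, and the secretory machinery in the last 3 rows had medians of 0.14, -0.09 and -0.27. The row of paralogues also holds Pou2f1 and Pou2f2, which encode partners of the Pou2af1 protein.

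The general secretory machinery gave 0 calls by edgeR, with medians of -0.27 to 0.14 over its lists. None of the 20 ER chaperone and ERAD genes passed edgeR (1 at an unadjusted p under 0.05) or DESeq2, with a median of 0.14 and a range of -0.69 to 0.70; 1 was called higher without PBS replicate 1. Hspa5, the chaperone BiP, had 546 and 926 CPM with MHE, against 761 and 526 CPM with PBS, and Syvn1, the ERAD ligase Hrd1, had a log2 fold change of 0.70 ± 0.20 (adjusted p = 0.108). Likewise 0 of the 28 genes of the translocon, signal peptidase and glycosylation passed by either tool (0 at an unadjusted p under 0.05; median -0.09). Of 14 ER to Golgi transport genes, 0 passed edgeR (2 at an unadjusted p under 0.05) and 1 fell by DESeq2. The median of the 14 was -0.27, only 2 were positive, and in 10 both MHE libraries were below both PBS libraries (28.9% of all genes), with Mcfd2, a cargo receptor subunit, at -0.71 ± 0.21. Of 11 genes of the unfolded protein response sensors and PERK branch, 0 passed either test (1 at an unadjusted p under 0.05; median -0.08), and Eif2ak3, which encodes PERK itself, had 0.70 ± 0.19 (adjusted p = 0.101). These genes are used by every secreting cell of the tissue.

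Of 14 paralogues or partners of the 9 genes, 2 rose, the partner gene Pou2f2 and the Irf4 relative Irf8 (median -0.30, with 8 at an unadjusted p under 0.05). DESeq2 called 6, of which 3 were higher and 3 lower, beside 19.3% of all genes. The ER paralogues did not pass: Derl1 and Derl2 had -0.17 and -0.03, Creld1 had -1.13 ± 0.26 (adjusted p = 0.0754) beside 0.57 for Creld2, and Fkbp7 had -0.90 ± 0.18 (0.0589) beside -0.07 for Fkbp11.

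Of 8 tested survival and help factors of plasma cells, 2 rose (median 1.33): Cxcr4, the receptor that holds plasma cells near CXCL12 (2.24 ± 0.22, adjusted p = 0.0212), and the costimulatory ligand gene Cd86 (2.33 ± 0.29, 0.0259). Tnfsf13b, which encodes the B cell survival factor BAFF, had 12.2 and 12.6 CPM with MHE, against 6.14 and 2.26 CPM with PBS (1.56 ± 0.51, adjusted p = 0.135). Il21, a T cell cytokine that drives plasma cell formation, had 12 and 18 counts with MHE and 0 in both PBS libraries, and did not pass (adjusted p = 0.0839).

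Markers of other cells that use some of the 9 genes were higher with MHE for lymphocytes and dendritic cells, and not called for macrophages. All 14 B cell markers were higher in both MHE libraries than in both PBS libraries (33.1% of all genes), and 5 rose (median 4.81). By DESeq2 13 rose (19.3% of all genes were called), and with no low-count filter 2 rose. They summed to 2548 and 2021 CPM with MHE, against 148 and 18.6 CPM with PBS. All 12 T cell markers rose (median 5.09), with sums of 1086 and 851 CPM with MHE against 39.6 and 13.7 CPM with PBS. Of 11 dendritic cell markers 6 rose (median 3.34), with sums of 651 and 562 CPM with MHE against 130 and 155 CPM with PBS. The dendritic cell markers that did not pass were Ccr9 (log2 fold change 4.94), Fscn1 (1.29), Clec9a (1.22), Cd209a (1.08) and Zbtb46 (0.13, with overlapping groups). No B, T or dendritic cell marker was at 0 in any library. The 8 lymph node stroma markers summed to 952 and 609 CPM with MHE, against 185 and 49.4 CPM with PBS, and 4 rose. Of the 12 macrophage markers, 0 passed (0 at an unadjusted p under 0.05, 0 by DESeq2 and 1 lower without PBS replicate 2), with a median of -0.05, overlapping groups for each marker, and sums of 2413 and 2988 CPM with MHE against 4087 and 1839 CPM with PBS. The part of each cell type in the levels of Irf4, Pou2af1 and Mzb1 was not tested.

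**Figure D4:**
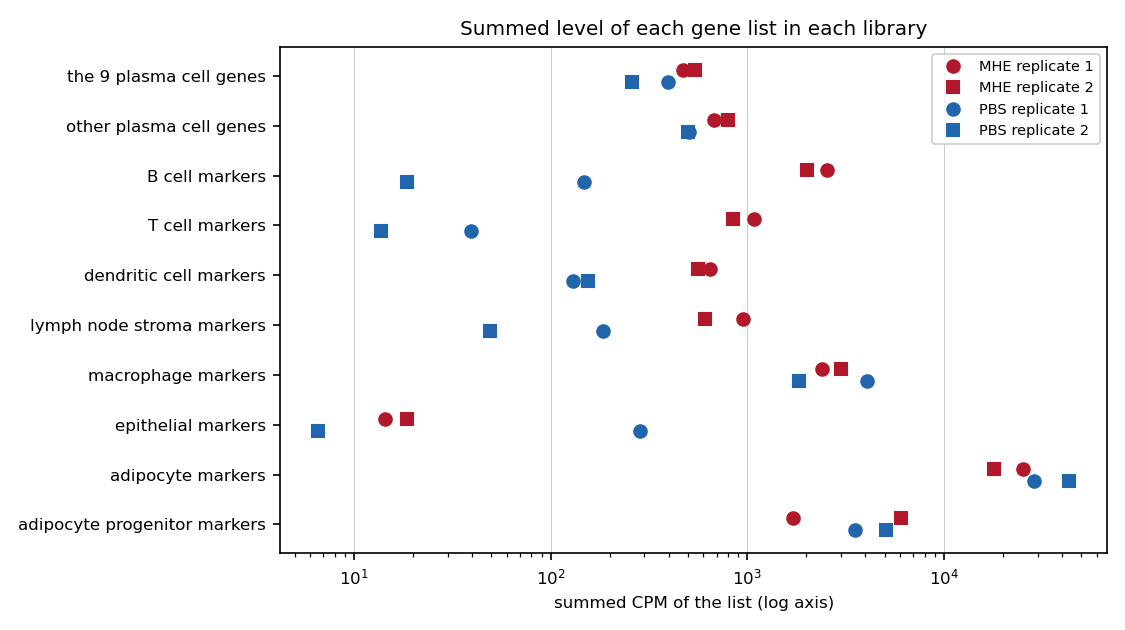
Summed CPM of gene lists in each library, on a log axis. B cell markers had 148 CPM in PBS replicate 1 and 18.6 CPM in PBS replicate 2, epithelial markers stood out in PBS replicate 1 (285 CPM), and the 9 plasma cell genes together ranged from 261 to 543 CPM.

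The levels were also set against the summed B cell markers of the same library. These ratios were described after the levels had been seen and carry no test. Pou2af1 stood at 49.4 and 69.6 CPM per 1000 CPM of the 14 B cell markers with MHE, against 66.5 and 49.0 with PBS, so the groups overlapped. Mzb1 stood at 11.9 and 14.03 with MHE, against 52.1 and 9.07 with PBS. Prdm1, by the same ratio, stood at 2.06 and 4.72 with MHE, against 47.3 and 96.2 with PBS, and Irf4 at 21.0 and 39.3 with MHE, against 83.1 and 1062 with PBS. Jchain stood at 28.7 and 88.9 with MHE, against 732 and 103 with PBS. By this denominator, the other 7 of the 9 genes were higher in both PBS libraries than in both MHE libraries. The 14 markers had log2 fold changes of 2.78 to 7.15, against -1.21 to 2.05 for these 7 genes. A gene that changes much less than the markers comes out higher with PBS by this ratio, whatever its function. The share of all tested genes in this order was not computed.

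The denominator in PBS replicate 2 was small, 551 counts in 14 markers, of which Ralgps2 took 42.3%, against 4.08% and 4.65% in the MHE libraries. With the other 13 markers as denominator, chosen after seeing the data, Pou2af1 stood at 51.5 and 73.0 with MHE, against 77.5 and 84.9 with PBS, and Mzb1 at 12.4 and 14.7 with MHE, against 60.7 and 15.7 with PBS. All 9 genes were then higher in both PBS libraries than in both MHE libraries. Mzb1 in PBS replicate 2, which rests on 5 counts, and Pou2af1 in PBS replicate 1 were close to MHE replicate 2, so their order is uncertain. For this denominator too, the share of all tested genes in that order was not computed. Per 1000 CPM of the 12 T cell markers, Pou2af1 stood at 116 and 166 with MHE, against 249 and 66.5 with PBS, and Jchain at 67.2 and 211 with MHE, against 2736 and 140 with PBS, and the groups overlapped for both. The order of the groups for Pou2af1, Mzb1 and Jchain thus changed with the denominator. Summed over the 9 genes, the ratio to the 14 markers was 0.186 and 0.269 with MHE, against 2.68 and 14.002 with PBS, and without Xbp1 it was 0.103 and 0.163 with MHE, against 1.03 and 4.04 with PBS.

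**Figure D5:**
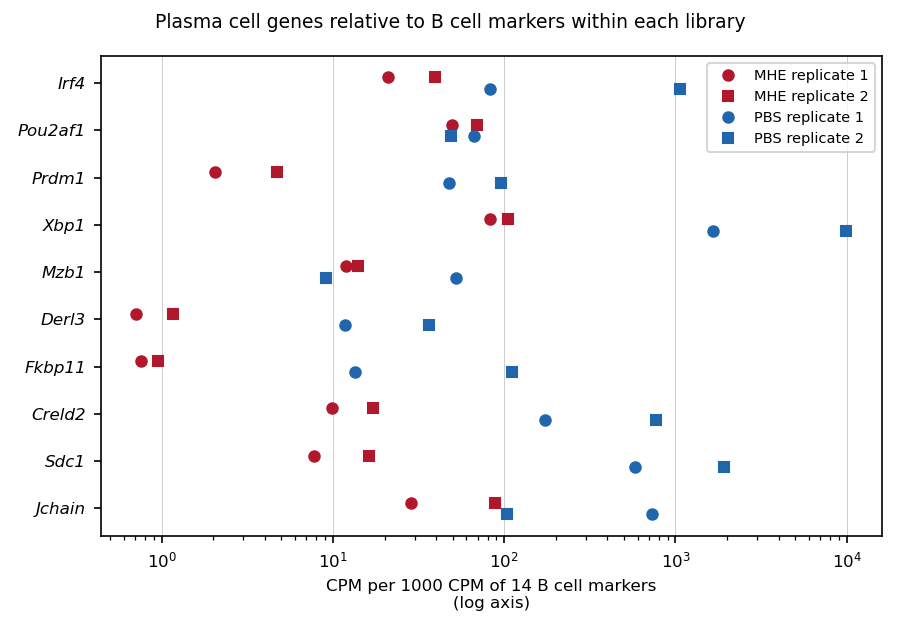
CPM of each of the 9 genes and of Jchain per 1000 CPM of 14 B cell markers in each library, on a log axis. Pou2af1 lay at 49.0 to 69.6 in all 4 libraries, whereas Xbp1 ranged from 82.8 to 9966.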

How the data were processed

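The authors deposited 1 file per library with unnormalized counts for 26214 gene symbols. The build mm10 and the tools TopHat2, limma and edgeR are named, per the submitters' processing notes; versions, counting program, annotation and strand use are not given in the sources. The labels' protocols name Trizol extraction, Illumina libraries and triplicates; 2 libraries per group were analysed here.

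From the counts, MHE minus PBS was fitted over all 4 libraries in edgeR 4.0.16 (R 4.3.3): TMM scaling, the filterByExpr low-count filter (10 per library, 15 in all) and a robust quasi-likelihood test. All 9 genes passed the filter. SE was derived from the log2 fold change and its F statistic (their ratio after taking the root of F). The alternatives tried were DESeq2 1.42.0, limma-voom (limma 3.58.1), scaling by median-of-ratios or by totals, no filter or a stricter one (50 counts over the libraries and 1 CPM in 2), a replicate block, and omission of each library in turn.

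The 9 genes and the lists were chosen with earlier results of these data known. Named genes are the 9, up to 4 genes of smallest p per list and the 2 tested genes nearest to a member (log2 CPM with a prior count of 2, centred per gene, mean of at least 1, provisional symbols left out); others, such as Jchain, Hspa5, Sdc3, Sdc4, Derl1, Derl2 and Il21, were named after their values were seen. Exon lengths are unions of GENCODE vM21 basic exons (GRCm38). Sequences come from RefSeq on GRCm38.p6. The test was checked on simulated data. For the ratios to B cell markers, another denominator, built from fewer markers, is not reported here. Every pair of libraries differed beyond counting noise (chi-square per degree of freedom 134 or more). P-values set the group difference against the spread between libraries, and the labels do not say whether that is a spread between single animals.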

Additional observations from a re-analysis of the deposited data

How the results depend on the processing

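Irf4 kept its direction under every alternative run and its call under all but the 2 that left out an MHE library. The number of the 9 genes called was 2 by DESeq2 and 2 by limma-voom, against 1, and 0 to 4 with a library left out. Over all genes 799 were called, against 2951 by DESeq2 and 0 to 2750 with a library left out, and over the other lists together 39, against 68 by DESeq2 and 0 to 70. A library left out leaves a single one in its group, assumed to vary like the other group. The split of calls was 643 higher and 156 lower, 828 and 119 by library totals, 1714 and 1237 by DESeq2, 1753 and 997 when PBS replicate 1 was omitted, and 1280 and 1233 when PBS replicate 2 was. Library totals alone moved the median of all genes to 0.14, against -0.02; Xbp1 then had 0.13 and Fkbp11 0.10, turned in sign. With a library left out, Xbp1 ranged from -0.20 to 0.18 and was positive when MHE replicate 1 (0.0044) or PBS replicate 1 was omitted. The other 7 genes kept their sign under all alternatives. The mean ratio of the 9 genes to B cell markers was 0.228 with MHE and 8.34 with PBS, and 0.133 with MHE and 2.53 with PBS when Xbp1 was left out of the 9. Without Ralgps2 among the markers, an alternative chosen after seeing the data, it was 0.238 with MHE and 13.7 with PBS. Raw counts give the same ratios by construction. The causes were not tested.

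Replicate numbers are shared between groups, but no label says that they pair the samples. Deviations of the replicates 1 from their group means correlated at r = 0.12 over 16196 genes, which are not independent replicates. With the replicate block, 764 genes were called, and Irf4 had 2.06 (edgeR adjusted p = 0.0369). Depth limits Derl3, Fkbp11 and the PBS level of Mzb1, and counting intervals were not computed.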
